A study of Mus musculus with 8 samples.

Results

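The response to TGFβ was examined in NMuMG cells transfected with siRNA against Klf4, as the difference between the 2 arrays labelled siKlf4 with TGFβ and the 2 labelled siKlf4 without it. NMuMG cells are an untransformed mouse mammary gland epithelial line that undergoes an epithelial to mesenchymal transition (EMT) under TGFβ, and the subclone NMuMG/E9 was used. These 4 arrays belong to a set of 8, whose other 4 hold the same treatment in cells transfected with a negative control siRNA (siControl). The siKlf4 cells received a pool of 2 siRNAs against Klf4, and TGFβ was given at 2 ng/ml for 2 days. Every group thus held transfected NMuMG cells, and none held untransfected cells. All probe sets of the whole-transcript array with a single gene symbol were used, with the brightest probe set standing for a gene, which gave 19937 genes from 34760 probe sets. Values are log2 array values, so that a difference of 1 is a 2-fold difference. A gene is written to have risen or fallen where limma, fitted over all 8 arrays, gave an adjusted p under 0.05. Where nothing else is said, the call of a named gene in siKlf4, or of its difference from the siControl response, was also made in the same direction when any 1 of the 8 arrays was left out. No source used here tells whether both arrays of a group hold RNA of independent transfections, so a p-value reflects no more than the scatter of these arrays, which could be technical.

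TGFβ binds a complex of type II and type I receptor kinases, which phosphorylate the receptor Smads Smad2 and Smad3. With Smad4 these enter the nucleus and change transcription, while Smad7, Smurf1 and Smurf2 restrain the receptors. In epithelial cells the pathway is known for stopping the cell cycle in G1, through CDK inhibitors and the loss of G1 cyclin and Myc activity, and for driving EMT. The Krüppel-like factor Klf4 binds GC-rich promoter sequences in epithelia and acts in growth arrest and differentiation. The comparison asks which genes respond to TGFβ in cells labelled as transfected with siRNA against Klf4.

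The labels of these arrays carry a doubt that bears on every direction below. Klf4, the target of the siRNA, read 8.03 and 7.91 in the siKlf4 arrays without TGFβ and 7.43 and 7.24 in those with it. The siControl arrays read 8.60 and 8.43 for Klf4 without TGFβ and 7.46 and 7.46 with it. Klf4 fell under the TGFβ label in the siKlf4 arrays, by 0.63 on the log2 scale (standard error 0.10, limma's adjusted p = 0.00295). The arrays did not overlap, as was so for 49.2% of all genes tested. Between the siRNA labels its difference was −0.54 without TGFβ and −0.13 with it, so that the arrays with TGFβ did not separate the siKlf4 label by this gene (adjusted p = 0.444). Fn1, which encodes the matrix protein fibronectin and is a well-known TGFβ target, read 12.37 and 12.35 without TGFβ and 12.70 and 12.73 with it in siKlf4. It read 9.61 and 9.70 without TGFβ and 9.84 and 9.73 with it in siControl, far below every siKlf4 array. Smad7, an inhibitor that TGFβ induces in most cells, read 9.41 and 9.60 without and 9.66 and 9.61 with TGFβ in siKlf4, a difference of 0.13 (adjusted p = 0.514). In siControl it read 8.12 and 8.02 without TGFβ and 7.57 and 7.70 with it, below every siKlf4 array. All groups are named by their labels, and how far mislabelling or incomplete depletion took part was not tested.

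**Figure D1:**
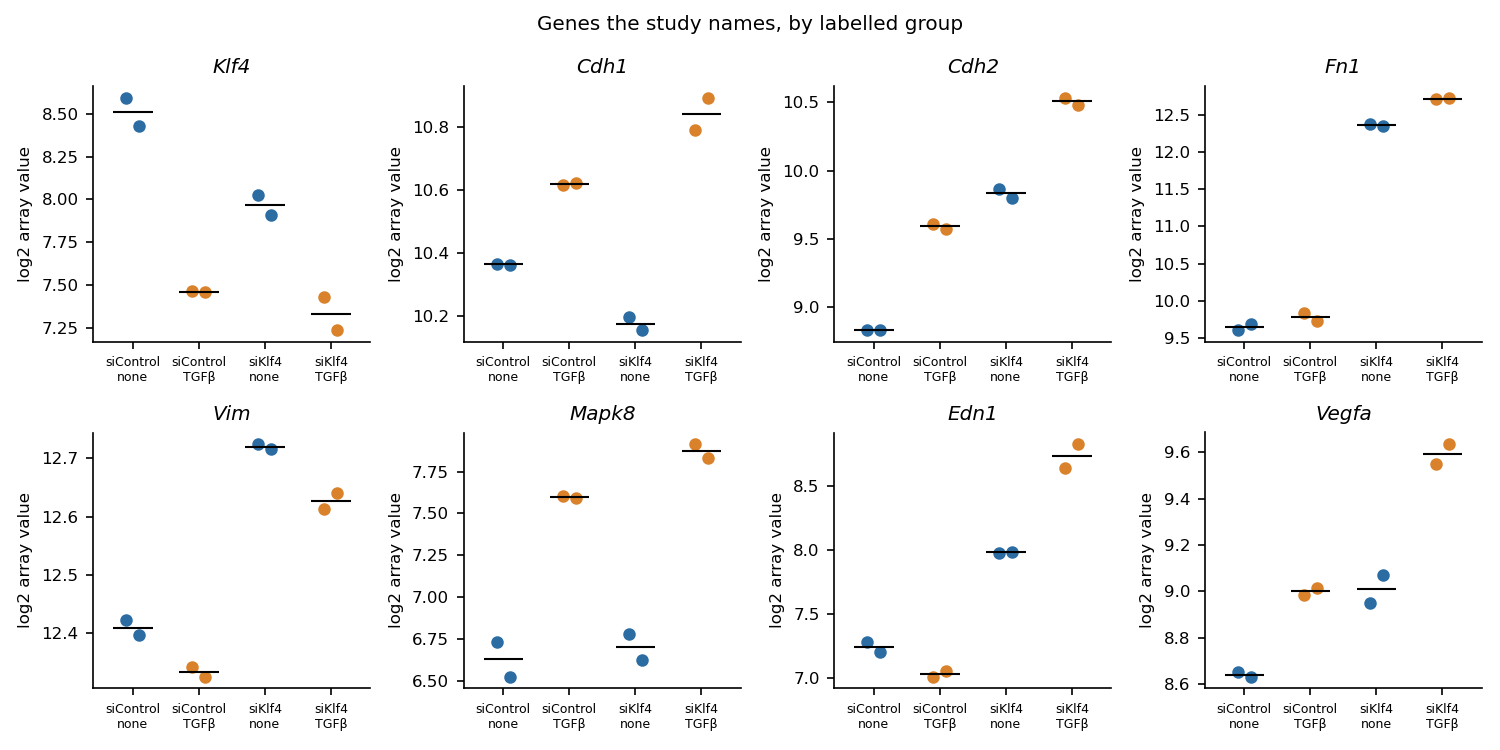
Log2 array values (y axis) of genes named in the study, with 1 point per array and a line at the mean of the 2 arrays, in the 4 labelled groups (x axis). Klf4 was lowest in the arrays with TGFβ of either siRNA label, and Fn1 differed far more between siRNA labels than between TGFβ labels.

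Under TGFβ, 1199 of the 19937 genes rose in siKlf4 cells (6.01%) and 1370 fell (6.87%). Of these, 415 rose (2.08% of all genes) and 571 fell (2.86%) by at least 1.5-fold, and 84 rose (0.421%) and 147 fell (0.737%) by at least 2-fold. The median value of an array lay between 4.90 and 5.0, and arrays of 1 group correlated at r = 0.992 to 0.995. The median log2 difference over all genes was −0.02, the 10th and 90th percentiles were −0.27 and 0.24, and the median standard error was 0.098. In siControl cells, on arrays that the siKlf4 comparison does not use, 1158 genes rose (5.81%) and 1326 fell (6.65%). The counts of every list below stand against these shares of all genes. They are 6.01% and 6.87% in siKlf4, and 5.81% and 6.65% in siControl, and a list near them moved about as all genes did. The genes that rose in siKlf4 included 609 that rose in siControl as well, which is 50.8% of the first list and 52.6% of the second. Of the genes that fell, 703 fell in both siRNA groups, or 51.3% of the siKlf4 list and 53% of the siControl list. Of the 1345 genes called in both groups, 1312 had the same sign. Across genes the log2 differences of the siRNA groups had a Pearson r of 0.592, as a description over genes that are not independent replicates. The difference between the responses was tested as an interaction, siKlf4 response minus siControl response, which was positive for 109 genes (0.547%) and negative for 195 (0.978%). These counts fell to 13 and 15 at the lowest with 1 array left out, and a one-way analysis of variance without moderated variances called 0 in either direction (2400 genes at an unadjusted p under 0.05).

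**Figure D2:**
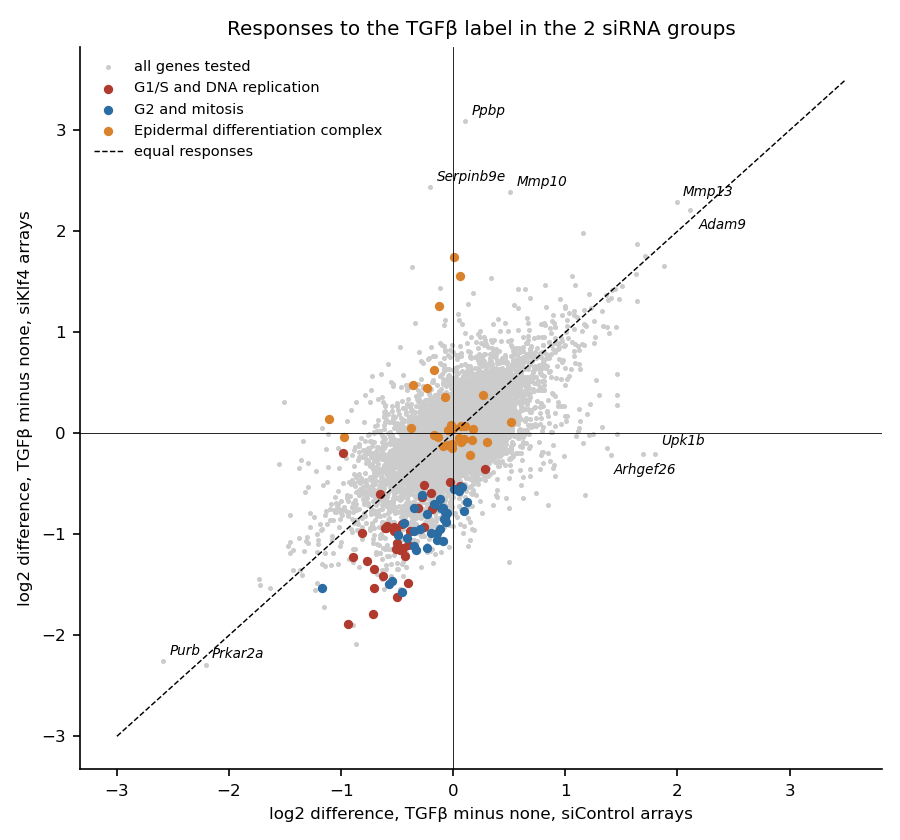
Each point is 1 of the 19937 genes, with its log2 difference between arrays with and without TGFβ in siControl (x axis) and in siKlf4 (y axis). Colours mark 3 gene lists and the dashed line marks equal responses, with Ppbp and Serpinb9e far above it, Upk1b and Arhgef26 below it, and the cell cycle genes mostly below it.

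Some of the largest increases were shared with siControl cells, while others were larger in siKlf4. Ppbp, a CXC chemokine best known from platelets, read 7.37 and 6.96 without TGFβ and 10.21 and 10.30 with it, while the siControl arrays read 6.14 and 5.49 without and 5.85 and 6.0 with it. Its log2 difference was 3.09 (standard error 0.20, adjusted p = 4.7e-05), and it exceeded the siControl difference by 2.98 (adjusted p = 0.00522). Serpinb9e, a serine protease inhibitor gene, read 6.21 and 5.46 without TGFβ and 8.33 and 8.22 with it, a rise of 2.44. In siControl it stayed between 3.86 and 4.22 on all arrays, below the array medians of 4.90 to 5.0, where a response may not be seen. The stromelysin gene Mmp10 read 6.29 and 6.70 without TGFβ and 8.86 and 8.90 with it, and its rise of 2.39 exceeded that in siControl by 1.88 (adjusted p = 0.00522). For these genes no siKlf4 array without TGFβ reached the level of one with TGFβ, but that was a condition for naming them. Over all genes tested, the siKlf4 groups did not overlap for 9814 (49.2%).

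Mmp13, a collagenase, and Adam9, a membrane-bound metalloprotease, rose in both siRNA groups. Mmp13 read 5.91 and 5.85 without TGFβ and 8.22 and 8.11 with it, a rise of 2.29 against 1.99 in siControl. Adam9 read 7.48 and 7.37 without TGFβ and 9.60 and 9.67 with it, a rise of 2.21 against 2.11 in siControl. For neither did the responses differ past the threshold (interaction 0.29 and 0.10). The next in order were Dpysl3 (1.98), a regulator of axon guidance and cytoskeleton, Cacna2d1 (1.88), a calcium channel subunit, Tmtc3 (1.75), Lce1f (1.75), Cyrib (1.65), Clec2e (1.65), Dynlt3 (1.58), Bmt2 (1.56), Lce1g (1.56) and Cyp11a1 (1.53). H2bc4, Prrg4, Tprgl, Cxcl5 and Foxn1 completed the 20 largest, clone and prediction names left out, with rises from 1.47 to 1.43.

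Several of the largest decreases were in cell cycle genes, which are described further on. With clone and prediction names left out, the largest decrease was in Prkar2a, a regulatory subunit of protein kinase A. It read 8.51 and 8.36 without TGFβ and 6.23 and 6.05 with it (−2.29, and −2.21 in siControl). Purb, a single-stranded nucleic acid binding protein, read 10.14 and 9.86 without TGFβ and 7.75 and 7.75 with it (−2.25, and −2.59 in siControl). Under the alternative ways of processing described further on, the Purb difference in siKlf4 ran from −2.39 to −1.56. These genes fell in both siRNA groups, with interactions of −0.08 and 0.33 that did not pass. Pclaf, which binds the replication clamp PCNA, read 9.54 and 9.37 without TGFβ and 7.39 and 7.35 with it. It fell by 2.09 in siKlf4 and by 0.87 in siControl, and this difference passed the test (interaction −1.22, adjusted p = 0.00611). S100a4 and S100a7a, which encode small calcium-binding proteins, fell by 1.72 and 1.48, and the glutamine transporter gene Slc1a5 fell by 1.56. Zfp946, a zinc finger gene, read 7.23 and 6.77 without TGFβ and 5.63 and 5.31 with it, and Ebp, a sterol isomerase, fell by 1.5 in siKlf4 and by 1.73 in siControl. Itgb6, the integrin subunit that activates latent TGFβ, read 8.25 and 8.23 without TGFβ and 6.82 and 6.72 with it, a difference of −1.47 against −0.54 in siControl.

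**Figure D3:**
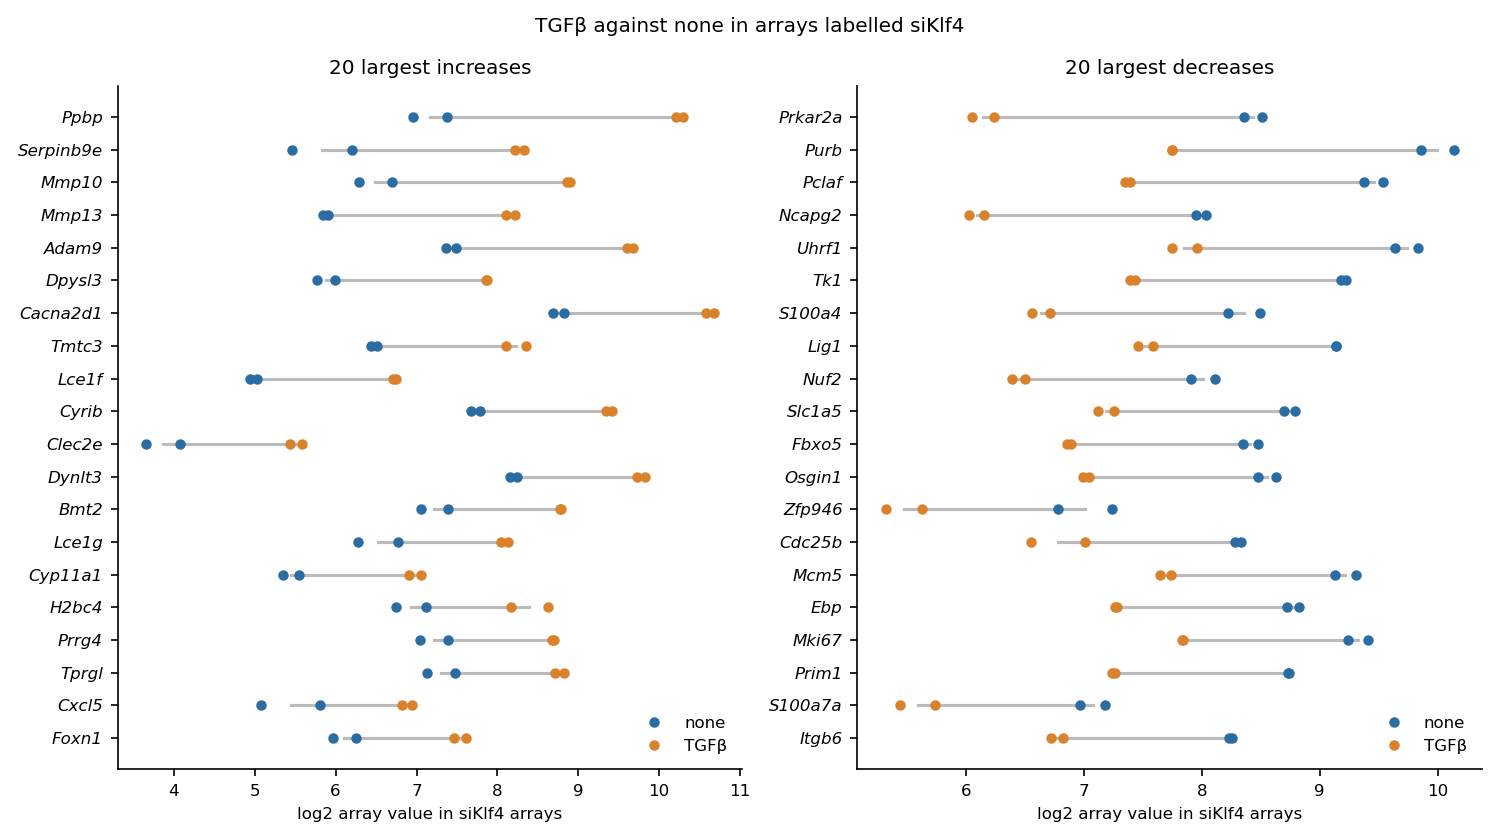
Log2 array values (x axis) of the 20 largest increases and the 20 largest decreases (rows) in the 4 siKlf4 arrays, with arrays without TGFβ in blue, those with TGFβ in orange, and a grey line between the group means. The groups do not overlap for any gene shown, since that was a condition for naming it. Clone and prediction names were left out of the ranking.

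Components of the TGFβ pathway had smaller log2 differences in siKlf4 than the genes of the largest changes, from −0.30 to 0.89. Of 34 measured ligands, receptors, Smads and regulators, 7 rose and 1 fell, against 6.01% and 6.87% of all genes, and the median log2 difference was 0.12 against −0.02 for all genes. The 7 were Smurf2, Inhba, Acvr1b, Skil, Smad5, Smad1 and Acvr1, of which the first 3 kept the call with any array left out, so that between 3 and 7 were called higher. Among ligands, Inhba, an activin subunit, read 5.73 and 5.56 without TGFβ and 6.28 and 6.35 with it, a rise of 0.67, while siControl read 4.87 and 4.96 without and 4.78 and 4.87 with it. Tgfb1 differed by −0.30 (adjusted p = 0.0537), Tgfb2 by 0.18, Tgfb3 by 0.12 and Inhbb by −0.27, and none of these passed. The latent TGFβ binding proteins Ltbp1, Ltbp2, Ltbp3 and Ltbp4 differed by −0.29, 0.04, 0.11 and 0.22 and did not pass either. Ltbp1 differed by −1.30 in siControl, so that its interaction of 1.01 passed, a call not kept in every fit without an array.

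Among receptors, the activin type I receptor gene Acvr1b read 7.14 and 6.92 without TGFβ and 7.62 and 7.69 with it, a rise of 0.63 (adjusted p = 0.00201), against 0.00 in siControl. The TGFβ receptor genes Tgfbr1, Tgfbr2 and Tgfbr3 differed by 0.23, −0.05 and −0.00 in siKlf4, with adjusted p-values of 0.0904, 0.801 and 0.994. Tgfbr2 had risen by 0.59 in siControl cells, and the difference of the responses, −0.63, had an adjusted p of 0.0263. That difference was called in 0 of the 8 fits that left out an array, where its adjusted p went up to 0.135. Acvr1 (0.28) was called in 2 of these fits, with an adjusted p of up to 0.197. Acvrl1, Acvr2a, Acvr2b, Bmpr1a, Bmpr2 and the coreceptor gene Eng did not pass, with differences from −0.24 to 0.32.

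The receptor Smads differed by 0.05 (Smad2) and 0.15 (Smad3) and the common Smad4 by −0.08, none past the threshold. Smad1 and Smad5, which serve BMP receptors, were higher by 0.30 and 0.32, with adjusted p-values of 0.0413 and 0.0476. Smad1 was called in 2 and Smad5 in 0 of the 8 fits without an array (adjusted p up to 0.265 and 0.314). The inhibitory Smad6 and Smad7 differed by −0.07 and 0.13. Smurf2, a ubiquitin ligase that targets the receptors, read 8.12 and 8.11 without TGFβ and 8.95 and 9.06 with it, a rise of 0.89 against 0.91 in siControl. Smurf1 was lower by 0.28 (adjusted p = 0.0493), a call made in 2 of the 8 fits without an array. Skil, a repressor of Smad transcription, was higher by 0.37, called in 5 of those 8 fits, and Ski, Tgif1 and Bambi did not pass. Of 29 measured genes known to be induced by TGFβ, 6 rose and 1, Itgb6, fell, with a median of 0.13. Col4a1, a basement membrane collagen, read 8.71 and 8.73 without TGFβ and 9.56 and 9.69 with it, a rise of 0.91, and Ldlrad4, a feedback inhibitor, rose by 0.68. Without one or other array, between 2 and 6 of these genes were called higher. The integrin call was kept in all 8 of these fits.

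Genes of the cell cycle lists, which were chosen with earlier results of these data known, fell almost without exception. Of 35 measured genes of G1/S and DNA replication, 34 fell and none rose, with a median log2 difference of −0.97 and a range of −1.89 to −0.20. All 34 measured genes of G2 and mitosis fell, with a median of −0.88 and a range of −1.57 to −0.53. With any 1 array left out, between 30 and 34 genes of the first list and between 32 and 34 of the second were called lower. Since these are bulk arrays, fewer dividing cells and less RNA of these genes per cell cannot be told apart. Of 29 measured condensin and centromere genes, a family described further on, 19 fell, none rose and 10 were not called.

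Of the replication genes, Mcm5, a subunit of the MCM helicase, read 9.13 and 9.31 without TGFβ and 7.74 and 7.64 with it. It fell by 1.53 (standard error 0.09, adjusted p = 3.2e-05), and in siControl it read 10.19 and 10.14 without TGFβ and 9.49 and 9.43 with it, a difference of −0.71. Uhrf1, which maintains DNA methylation at replication forks, read 9.64 and 9.84 without TGFβ and 7.74 and 7.96 with it, the largest fall of the list (−1.89). Tk1, the thymidine kinase of S phase, read 9.18 and 9.22 without TGFβ and 7.43 and 7.38 with it. The ligase gene Lig1 read 9.14 and 9.14 without TGFβ and 7.46 and 7.58 with it. Prim1, the primase subunit, and Chaf1b, a histone chaperone, fell by 1.49 and 1.41. E2f2 was the exception, with −0.20 (adjusted p = 0.598) in siKlf4 and −0.98 in siControl. Ccne1, the G1/S cyclin E1, was lower by 0.35, which was called in 4 of the 8 fits without an array (adjusted p up to 0.123), while its difference of 0.29 in siControl (adjusted p = 0.0474) was called in 0 of those fits.

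Among mitotic genes, Nuf2, a kinetochore component, read 8.11 and 7.91 without TGFβ and 6.39 and 6.5 with it, the largest fall of its list (−1.57). Cdc25b, a phosphatase that activates CDK1, read 8.28 and 8.33 without TGFβ and 6.55 and 7.0 with it. Aurkb, the kinase of the chromosomal passenger complex, read 8.73 and 8.93 without TGFβ and 7.39 and 7.34 with it, and the proliferation marker Mki67 read 9.41 and 9.24 without and 7.84 and 7.83 with it. In each case the array groups did not overlap, as was so for 49.2% of all genes tested. The cyclin gene Ccna2 read 10.20 and 10.08 without TGFβ and 9.02 and 8.99 with it, the checkpoint gene Mad2l1 read 10.10 and 10.10 without and 9.05 and 8.92 with it, and Fbxo5, an inhibitor of the anaphase-promoting complex, read 8.35 and 8.47 without and 6.85 and 6.89 with it. Ncapg2, a condensin II subunit outside the list, read 8.03 and 7.95 without TGFβ and 6.15 and 6.03 with it, a difference of −1.90.

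In siControl cells the same lists moved less. There 28 of the 35 replication genes fell and 1 rose (median −0.51), and 9 of the 34 mitotic genes fell and none rose (median −0.16). With 1 array left out, between 14 and 27 replication genes and between 2 and 11 mitotic genes were called lower in siControl, and the single call higher was lost each time. The fall was larger in siKlf4 for 13 replication genes and 18 mitotic genes by the interaction test, with median interactions of −0.56 and −0.72, against 0.978% of all genes with a negative interaction. Which single genes passed depended on the arrays. With 1 array left out, between 2 and 10 replication genes and between 0 and 19 mitotic genes were called, and no mitotic gene was called without siControl TGFβ array 2 or without either siKlf4 TGFβ array. The medians stayed between −0.46 and −0.58 for replication and between −0.64 and −0.79 for mitosis in the same fits. Before TGFβ the siKlf4 arrays were already below the siControl arrays for each of the genes whose values are given above, so that the smaller response in siControl started from a higher level. The part of that lower start in the difference was not tested. Pclaf, Tk1 and Lig1 had larger falls in siKlf4 with any array left out.

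**Figure D4:**
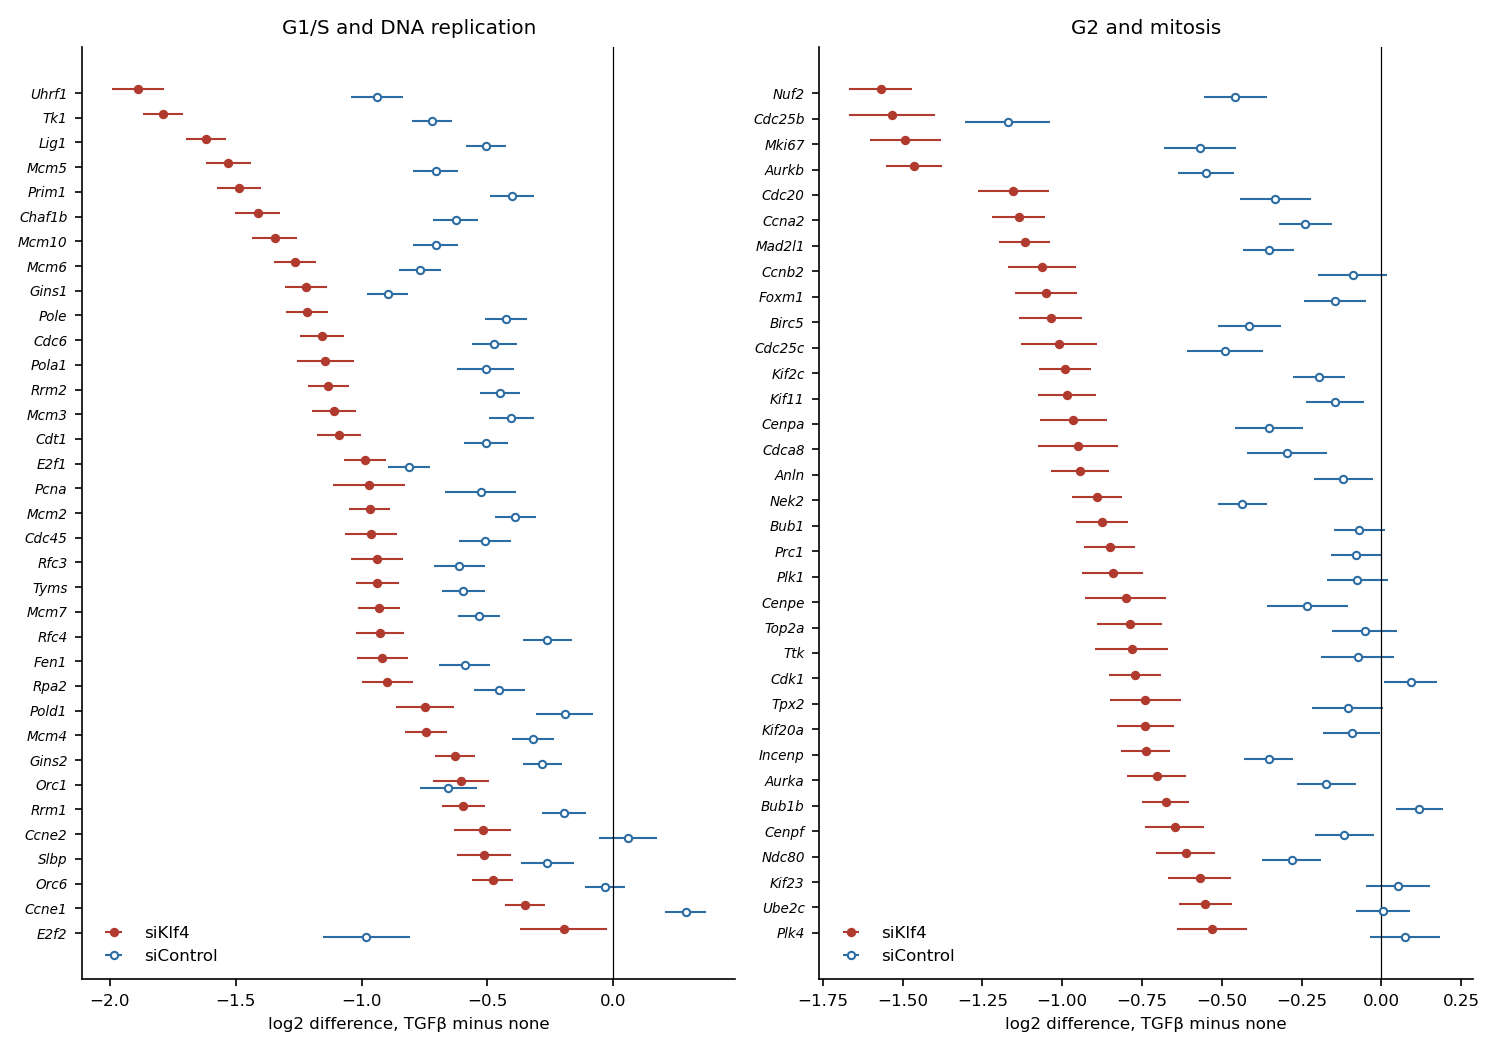
Log2 difference between arrays with and without TGFβ (x axis) for the measured genes of G1/S and DNA replication and of G2 and mitosis (rows), in siKlf4 and in siControl arrays, with bars of 1 standard error. The siKlf4 points lie left of 0 for all genes, and the siControl points of most mitotic genes lie near 0.

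Promoter sequences of cell cycle genes are shown for Mcm5, Mki67, Ncapg2 and Fbxo5, whose log2 differences ran from −1.90 to −1.49 and which hold matches to elements known from cell cycle promoters. Each runs from 250 bases before to 50 bases after the start of the gene on its own strand, from RefSeq on GRCm38.p6. Capitals mark matches to the E2F letters TTTGGCGC or TTTCGCGC, the cell cycle homology region (CHR) letters TTTGAA, or the CCAAT box letters CCAATC or CCAATG, on either strand. They lie at chr8:75109259-75109558 (Mcm5, plus strand), chr7:135716330-135716629 (Mki67, minus strand), chr12:116405186-116405485 (Ncapg2, plus strand) and chr10:5805416-5805715 (Fbxo5, minus strand).
Mcm5: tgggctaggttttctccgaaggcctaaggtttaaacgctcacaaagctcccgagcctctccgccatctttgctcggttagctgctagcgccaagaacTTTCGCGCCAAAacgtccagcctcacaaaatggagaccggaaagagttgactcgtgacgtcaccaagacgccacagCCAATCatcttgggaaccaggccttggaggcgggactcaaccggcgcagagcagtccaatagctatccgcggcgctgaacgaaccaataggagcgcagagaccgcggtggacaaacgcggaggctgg
Mki67: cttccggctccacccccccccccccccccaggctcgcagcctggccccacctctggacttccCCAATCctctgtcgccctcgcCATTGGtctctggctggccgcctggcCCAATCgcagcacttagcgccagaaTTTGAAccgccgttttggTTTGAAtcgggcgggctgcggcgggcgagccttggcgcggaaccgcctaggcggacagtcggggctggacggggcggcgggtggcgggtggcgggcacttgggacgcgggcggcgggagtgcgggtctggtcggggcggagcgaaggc
Ncapg2: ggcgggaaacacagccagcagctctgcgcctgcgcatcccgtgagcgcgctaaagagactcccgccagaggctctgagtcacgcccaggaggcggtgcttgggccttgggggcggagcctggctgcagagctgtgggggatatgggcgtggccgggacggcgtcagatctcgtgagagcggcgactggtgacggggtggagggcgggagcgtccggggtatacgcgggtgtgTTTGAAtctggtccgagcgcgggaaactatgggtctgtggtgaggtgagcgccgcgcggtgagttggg
Fbxo5: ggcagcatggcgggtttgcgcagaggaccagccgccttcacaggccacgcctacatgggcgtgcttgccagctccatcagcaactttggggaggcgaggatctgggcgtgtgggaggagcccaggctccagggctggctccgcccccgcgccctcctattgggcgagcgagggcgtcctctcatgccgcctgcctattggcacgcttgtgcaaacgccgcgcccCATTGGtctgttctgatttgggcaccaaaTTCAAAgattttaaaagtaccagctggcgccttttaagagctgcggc

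The Mcm5 window holds overlapping matches to E2F letters that begin at positions −153 and −149 from the start, and a CCAAT box at −77. Mki67 holds CHR letters at −116 and −98 behind CCAAT boxes at −188, −167 and −141. In Ncapg2 the CHR letters begin at −18, and in Fbxo5 at 4 with a CCAAT box at −26. Promoters were given for 15613 of the genes tested, and 15.2% of them hold the CHR letters, 1.15% the E2F letters and 28.7% the CCAAT box. Of promoters of genes that fell in siKlf4, 17.3% hold the CHR letters, 3.40% the E2F letters and 38.1% the CCAAT box, and of those that rose 8.88%, 0.930% and 28.6%. The CHR letters were in 19 of 27 promoters of the mitotic list (70.4%) and 3 of 30 of the replication list (10%), while the E2F letters were in 1 of 27 (3.70%) and 9 of 30 (30%). The AP-1 letters TGACTCA were in 3.93% of promoters of genes that rose, 2.61% of those that fell and 4.53% of all. The Klf letters GGGTGTG were in 8.68%, 8.97% and 8.33%. These are matches of letters in windows that differ in base composition, with no test.

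The D-type cyclins, which start G1 with CDK4 and CDK6, fell together. Ccnd2 read 10.11 and 10.25 without TGFβ and 8.87 and 8.92 with it, Ccnd1 read 11.72 and 11.80 without and 11.05 or less with it, and Ccnd3 read 8.26 and 8.37 without and 7.50 and 7.57 with it. Their log2 differences were −1.29, −0.74 and −0.78, against −0.50, −0.35 and −0.16 in siControl, the last of which did not pass. Only for Ccnd2 did the responses differ past the threshold (interaction −0.79, adjusted p = 0.0166), and this was called in 3 of the 8 fits without an array. Among 26 measured CDK inhibitors, p53 targets and growth arrest genes, these cyclins included, 3 rose and 6 fell (median 0.04), or between 1 and 4 and between 4 and 6 with 1 array left out. The CDK4 and CDK6 inhibitor gene Cdkn2c fell by 0.88, while Gadd45a, a stress gene, rose by 0.56. The retinoblastoma gene Rb1 was higher by 0.36, called in 3 of the 8 fits without an array, and the p53 target Trp53inp1 by 0.48, called in 6. Of 28 apoptosis genes, 1 rose and 2 fell (median 0.02), against 6.01% and 6.87% of all genes. Pmaip1, which encodes the BH3-only protein Noxa, read 7.56 and 7.63 without TGFβ and 8.76 and 8.71 with it, a rise of 1.14 against 0.66 in siControl. Bcl2, the survival gene, and Bad were each lower by 0.42, calls made in 5 and 3 of the 8 fits without an array.

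Cadherins of either kind rose. Cdh1, the epithelial E-cadherin, read 10.20 and 10.15 without TGFβ and 10.79 and 10.89 with it, a rise of 0.67 (standard error 0.08, adjusted p = 0.00061). Cdh2, the mesenchymal N-cadherin, read 9.87 and 9.80 without TGFβ and 10.54 and 10.48 with it, a rise of 0.68 against 0.76 in siControl. In siControl, Cdh1 differed by 0.25 (adjusted p = 0.0672), and the responses did not differ past the threshold for either gene. The intermediate filament gene Vim read 12.72 and 12.72 without TGFβ and 12.61 and 12.64 with it, a difference of −0.09 (adjusted p = 0.547). Ctnnb1, which encodes β-catenin, was higher by 0.28 (adjusted p = 0.0431), but was called in 2 of the 8 fits without an array. The tight junction gene Tjp1 (ZO-1) differed by −0.05 and the focal adhesion gene Pxn by 0.04, and neither passed. Fn1 was higher by 0.36 (adjusted p = 0.0184), called in 4 of those 8 fits.

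Of 29 genes of epithelial adhesion and polarity, 4 rose and 2 fell (median 0.02), and between 1 and 4 were called higher with 1 array left out. The desmosomal plakin Ppl read 8.08 and 7.78 without TGFβ and 6.99 and 7.11 with it, a difference of −0.88, and the claudin Cldn2 fell by 0.75. Dsg2 and Marveld2 were higher by 0.52 and 0.44, each called in 5 of the 8 fits without an array. Among 15 keratins, Krt17 was higher by 0.65 and Krt7 and Krt20 lower by 0.36 and 0.32, and each call was lost in at least 3 of the 8 fits. Of 15 transcription factors of EMT, only Sox4 rose, by 0.52, and Snai1, Snai2, Twist1, Zeb1 and Zeb2 differed by −0.07, −0.02, −0.23, 0.07 and 0.23 without passing. Of 18 epithelial transcription factors and splicing regulators, 2 rose and 3 fell, or between 1 and 2 and between 1 and 3 with 1 array left out. The splicing regulator Esrp2 rose by 0.53, while the epithelial factors Klf5 and Ehf were lower by 0.43 and 0.59, calls made in 5 and 6 of the 8 fits.

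Mesenchymal genes moved both ways, with 9 of 29 higher, 3 lower and a median of 0.00. Sparc, a matrix glycoprotein, read 10.04 and 10.03 without TGFβ and 11.02 and 11.11 with it, a rise of 1.03 against 1.08 in siControl. The integrin β3 gene Itgb3 rose by 0.64 and the membrane metalloprotease gene Mmp14 by 0.57, close to their rises of 0.73 and 0.47 in siControl. Tagln, an actin-binding protein of smooth muscle, read 6.67 and 7.01 without TGFβ and 8.11 and 7.74 with it, a difference of 1.09 that was called in 6 of the 8 fits without an array. Its call was lost without siKlf4 array 1 of either treatment, with an adjusted p of up to 0.119. The fibronectin receptor gene Itga5 read 9.61 and 9.65 without TGFβ and 8.96 and 8.88 with it, a difference of −0.71. Between 4 and 8 genes of the list were called higher with 1 array left out.

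Of 37 genes of focal adhesions and actin, 7 rose and 4 fell (median 0.03). With 1 array left out, between 3 and 8 were called higher and between 1 and 4 lower. Vcl, which encodes vinculin, read 10.28 and 10.31 without TGFβ and 10.90 and 10.92 with it, and Actn1, an actin crosslinker, read 10.94 and 11.01 without and 11.56 and 11.55 with it. Their rises of 0.62 and 0.58 stood beside 0.61 and 0.59 in siControl. The actin gene Acta1 rose by 1.01, and Fblim1, a filamin-binding adaptor, fell by 0.59. Tns1, a tensin that links integrins to actin, read 8.72 and 8.89 without TGFβ and 8.09 and 8.24 with it in siKlf4, and 6.53 and 6.77 without and 7.15 and 7.40 with it in siControl. It was lower by 0.64 in the first and higher by 0.63 in the second, and the responses differed (interaction −1.27, adjusted p = 0.0128). The siKlf4 call for Tns1 was lost without siKlf4 array 2 without TGFβ or siKlf4 array 1 with TGFβ (adjusted p up to 0.0754), and the difference was called in 5 of the 8 fits.

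Mapk8, which encodes the stress kinase Jnk1, read 6.78 and 6.62 without TGFβ and 7.91 and 7.83 with it. Its rise of 1.17 (standard error 0.10, adjusted p = 0.000127) compared with 0.97 in siControl, where it read 6.73 and 6.52 without and 7.60 and 7.59 with TGFβ, and the interaction of 0.20 did not pass (adjusted p = 0.63). Of 23 genes of the JNK cascade and AP-1, 5 rose and 2 fell in siKlf4 (median 0.00), while in siControl 1 rose and 8 fell. With 1 array left out, between 2 and 5 were called higher and between 0 and 3 lower in siKlf4, and between 6 and 8 lower in siControl. Jun, an AP-1 subunit, read 9.09 and 8.94 without TGFβ and 9.52 and 9.51 with it in siKlf4, and 9.49 and 9.28 without and 8.84 and 8.82 with it in siControl. The responses of 0.50 and −0.55 differed (interaction 1.06, adjusted p = 0.0111), which was called in 4 of the 8 fits without an array and lost without any 1 of the 4 arrays with TGFβ. The rise of Jun itself was called in 5 of these fits, with an adjusted p of up to 0.0594. Fosl2, another AP-1 subunit, rose by 0.59, and Fosl1 and the phosphatase gene Dusp1 were lower by 0.38 and 0.32, each called in 2 of the 8 fits. Of 17 Klf family genes, Klf9 rose by 0.74 and Klf4 fell. Klf7 was higher by 0.38 and Klf5 and Klf13 lower by 0.43 and 0.59, and these 3 were called in 4 or 5 of the 8 fits.

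Stress and biosynthetic genes divided. Of 30 genes of the unfolded protein response and targets of Atf4, 10 rose and 3 fell (median 0.19), against 3 and 7 in siControl (median −0.10). Vldlr, a lipoprotein receptor that Atf4 induces, read 7.56 and 7.37 without TGFβ and 8.28 and 8.27 with it, a rise of 0.81. Xbp1, a transcription factor of the unfolded protein response, rose by 0.60, Chac1, which degrades glutathione, by 0.59, and Aldh18a1, of proline synthesis, by 0.56, while the serine synthesis gene Psat1 fell by 0.51. Chac1 read 8.17 and 8.14 without TGFβ and 8.77 and 8.71 with it in siKlf4, and 8.40 and 8.30 without and 7.85 and 7.58 with it in siControl (interaction 1.23, adjusted p = 0.00787). The interaction was lost without siKlf4 TGFβ array 2, at an adjusted p of 0.0525. Between 4 and 10 genes of this list were called higher with 1 array left out. Slc7a11, the cystine transporter subunit, read 6.14 and 6.29 without TGFβ and 7.42 and 7.39 with it, a rise of 1.19 against 0.04 in siControl, and this difference was called with any array left out.

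Of 26 genes of cholesterol and fatty acid synthesis, 1 rose and 10 fell (median −0.15), against 3 and 0 in siControl (median 0.10). The list did not hold the sterol isomerase gene Ebp, described above, which fell in both siRNA groups, so these counts do not cover the whole pathway. Elovl6, a fatty acid elongase, read 7.45 and 7.58 without TGFβ and 6.41 and 6.39 with it, a difference of −1.11, while siControl read 8.50 and 8.49 without and 8.61 and 8.63 with it. It was the only gene of the list whose responses differed past the threshold (interaction −1.24, adjusted p = 0.00517). The isoprenoid genes Idi1 and Pmvk fell by 0.77 and 0.75 and the sterol carrier gene Stard4 by 0.57. The gene that rose was Hmgcs1, the synthase before HMG-CoA reductase, from 9.53 and 9.48 to 10.16 and 10.17. Between 4 and 10 genes of the list were called lower with 1 array left out. Of 26 ribosome biogenesis genes and Myc targets, 7 fell and none rose, by 0.34 to 0.44, and in siControl none was called. Each of these 7 calls was lost in at least 2 of the 8 fits without an array, and in at least 1 fit none was made. Of 28 genes of glycolysis and hypoxia, 5 rose and 7 fell, or between 3 and 7 in either direction with 1 array left out. Hk2, a hexokinase, rose by 0.67, and Ldha, lactate dehydrogenase, read 12.09 and 12.07 without TGFβ and 11.56 and 11.63 with it, a difference of −0.48. Of 26 respiratory chain genes, 2 were called lower and none higher, and between 0 and 2 lower with 1 array left out.

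Several secreted factors and matrix enzymes rose. Of 34 matrix proteases and inhibitors, 8 rose and 1 fell (median 0.12), among them Mmp10, Mmp13, Adam9 and Serpinb9e described above and Ctsl, a cathepsin, which rose by 0.55. The aggrecanase gene Adamts4 fell by 0.81. Of 29 vascular growth factor and Notch genes, 7 rose and 1 fell (median 0.06), and between 4 and 7 were called higher with 1 array left out. Vegfa read 8.95 and 9.07 without TGFβ and 9.55 and 9.63 with it, a rise of 0.58 against 0.36 in siControl, and Vegfc read 6.28 and 6.28 without and 7.09 and 7.37 with it. The coreceptor gene Nrp1 rose by 0.98. Edn1, which encodes endothelin-1, read 7.98 and 7.99 without TGFβ and 8.64 and 8.83 with it in siKlf4, and 7.29 and 7.21 without and 7.01 and 7.06 with it in siControl. Its rise of 0.75 exceeded the siControl response by 0.96 (adjusted p = 0.0122), a difference called in 5 of the 8 fits without an array. Of 35 chemokine and cytokine genes, 4 rose and 4 fell, or between 3 and 5 and between 2 and 4 with 1 array left out. Besides Ppbp, Cxcl5 read 5.81 and 5.08 without TGFβ and 6.82 and 6.95 with it, and the interleukin 1 antagonist gene Il1rn rose by 0.96. The macrophage growth factor gene Csf1 read 9.72 and 9.68 without TGFβ and 8.66 and 8.71 with it, a difference of −1.02.

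Some genes of the cornified envelope rose in siKlf4 cells. Of 31 measured genes of the epidermal differentiation complex, which builds the outer layer of skin, 4 rose and none fell (median 0.05). Lce1f read 4.94 and 5.02 without TGFβ and 6.75 and 6.71 with it, Lce1g read 6.77 and 6.28 without and 8.04 and 8.13 with it, and Lce1i read 7.60 and 7.02 without and 8.74 and 8.39 with it. In siControl these late cornified envelope genes stayed between 3.29 and 4.46 on every array. Those values lay below the array medians of 4.90 to 5.0, where a response may not be seen. Sprr1a, a small proline-rich precursor of the envelope, rose by 0.63. For 5 genes of the list the responses differed past the threshold, or for between 1 and 5 with 1 array left out, and for Lce1f they did so in every such fit. The Lce1 genes are close paralogues, and their probe sets may share signal.

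Other genes responded to TGFβ in siControl but not, or oppositely, in siKlf4. Upk1b, a uroplakin, read 4.85 and 5.05 without TGFβ and 4.60 and 4.89 with it in siKlf4, and 6.60 and 6.60 without and 8.33 and 8.47 with it in siControl. The interaction was −2.00 (adjusted p = 0.00257). The siKlf4 values of Upk1b lay near or below the array medians, where a response may not be seen. Arhgef26, a guanine nucleotide exchange factor gene, read 6.28 and 6.18 without TGFβ and 5.96 and 6.10 with it in siKlf4, while it rose by 1.69 in siControl. Slco1a5, an organic anion transporter, fell by 0.61 in siKlf4 and rose by 1.18 in siControl, and Upk3b fell by 0.71 and rose by 0.85. Vat1l read 6.59 and 6.42 without TGFβ and 5.01 and 5.46 with it in siKlf4, a difference of −1.27 against 0.50 in siControl. These 5 differences were called with any array left out. Of 38 cytochromes P450 and conjugating enzymes, 3 rose and 4 fell in siKlf4 and 12 rose and 2 fell in siControl, and the interaction passed for 4, all negative. With 1 array left out, between 1 and 6 were called higher and between 0 and 5 lower in siKlf4, between 6 and 13 higher in siControl, and between 1 and 3 interactions passed. Cyp1b1, an enzyme of xenobiotic and steroid metabolism, rose in both, with 8.15 and 8.06 without TGFβ and 9.49 and 9.46 with it in siKlf4 and a rise of 1.37 in either siRNA group. Of 25 genes of EGF ligands and ERK feedback, 3 rose and 5 fell (median −0.09), or between 1 and 4 and between 1 and 5 with 1 array left out. The ERK inhibitor gene Spred1 read 7.60 and 7.48 without TGFβ and 8.56 and 8.63 with it, a rise of 1.06 against 1.37 in siControl. The ERK phosphatase gene Dusp5 fell by 0.68. Of 25 genes of glutathione, thioredoxin and Nrf2, 3 rose and 2 fell (median −0.00), with Slc7a11 as the largest change. Of 25 interferon response genes, 3 were called lower in siKlf4, against 6.87% of all genes, and 0 or 1 with an array left out. Of 20 autophagy and lysosome genes, 4 were called higher, against 6.01% of all genes, and between 1 and 3 with an array left out.

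The epithelial identity of the cells was checked by markers. Of 10 luminal epithelial markers, Krt8 read between 13.38 and 13.42 and Krt18 between 12.74 and 12.85 over the siKlf4 arrays, while Epcam read between 3.90 and 4.09 and Cldn7 between 4.20 and 4.78, below the array medians of 4.90 to 5.0. The median of the 10 was 8.89 and 9.01 in the siKlf4 arrays without TGFβ and 9.39 and 9.44 in those with it, while the median of their 10 log2 differences was −0.01. Of the 10, Cdh1 and Elf3 were called higher and Krt7 and Ehf lower, with Elf3 called in 5 of the 8 fits without an array. No marker of fibroblasts (6 measured), adipocytes (5) or endothelium (5) was called, with medians over the markers from 5.04 to 5.32, from 3.53 to 3.73 and from 4.08 to 4.29 on the siKlf4 arrays. The fibroblast marker Col1a1 stood above these medians, with siKlf4 means of 7.54 without TGFβ and 7.10 with it. It differed by −0.45 (limma's adjusted p = 0.0642), and some alternative ways of processing called it lower. Of 7 basal or myoepithelial markers, Krt17 alone was called, and of 4 blood cell markers, Cd68 alone, which read 7.58 and 7.46 without TGFβ and 6.35 and 6.51 with it. Ptprc, the pan-leukocyte marker, stayed between 3.61 and 3.76.

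**Figure D5:**
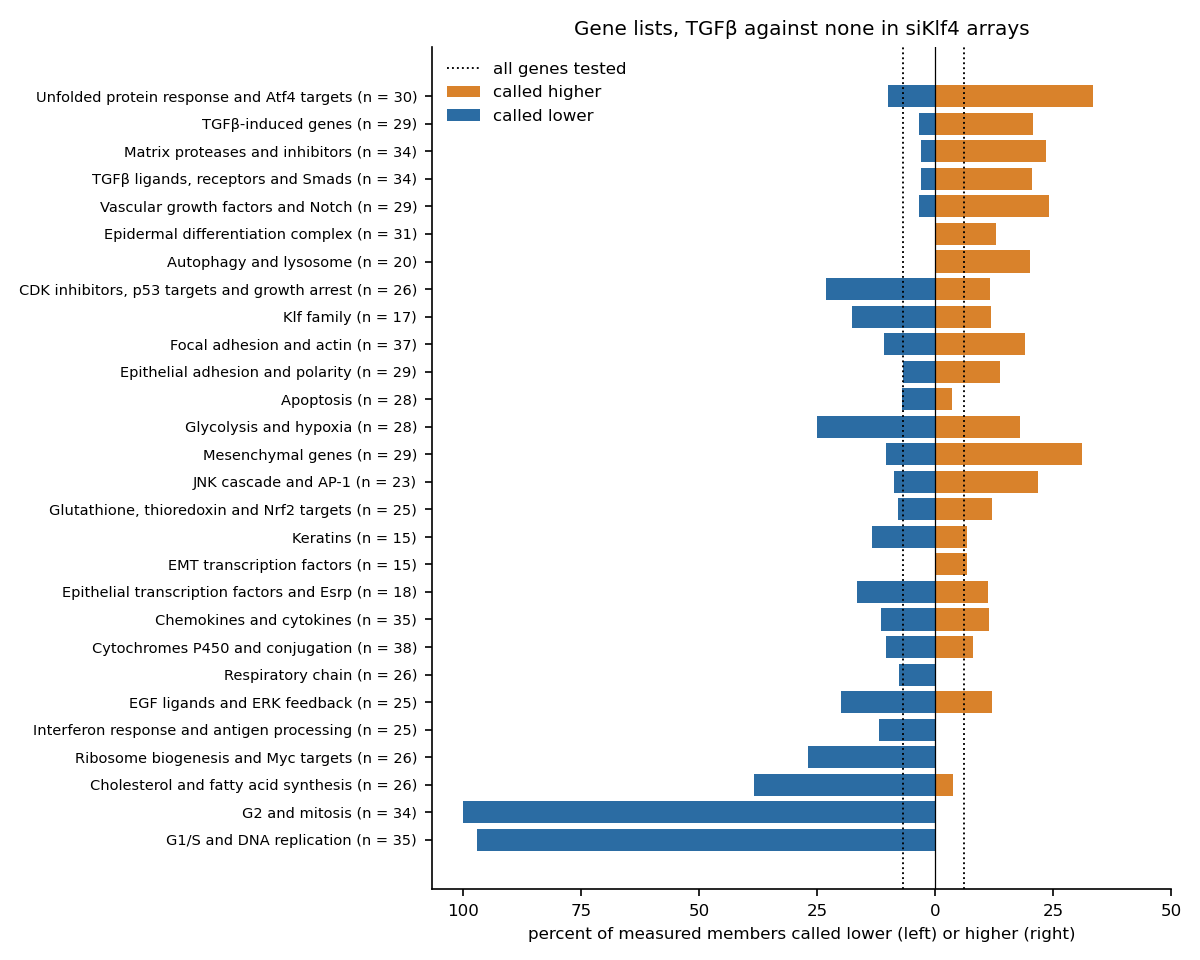
Percent of the measured members of each gene list (rows) called lower (left) or higher (right) under TGFβ, in siKlf4 arrays, with the shares over all genes tested as dotted lines and the lists ordered by their median log2 difference. In the cell cycle lists 34 of 35 and 34 of 34 genes were lower, against 6.87% of all genes.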

How the data were processed

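RNA of NMuMG cells was hybridised to whole-transcript mouse arrays, 2 for each combination of siRNA and TGFβ label, and groups were taken from the sample titles. The authors deposited log2 values made by RMA, which is to say that probes had been corrected for background, made alike in distribution over arrays and combined for every probe set. According to the notes of the submitters on processing, oligo 1.14.0 was used. The base of the log2 values was read from their range, since no source used here states it.

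Of 34760 probe sets, 21640 had a single symbol in the platform's table, 1321 had several and 11799 were not listed there. Of the single symbols, 21553 had an Entrez number found in RefSeq, and none of their symbols changed. Where a gene had more than 1 probe set (954 genes), the brightest on average stood for it.

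Differences were fitted in R 4.3.3 with limma 3.58.1 as 4 group means over all 8 arrays, with moderated variances and Benjamini-Hochberg adjustment over the 19937 genes for each contrast. The interaction was the siKlf4 response minus the siControl response. The named genes were the 20 largest increases and decreases whose groups of arrays did not overlap, the genes the study names, the pathway list, members of each list with the smallest p, and the 10 largest differences of responses in either direction. Clone and prediction names, such as Gm and Rik names, and olfactory and vomeronasal receptor names were left out of the rankings by size. The members and lists were chosen with earlier results of these data known. Lists are described by counts and medians, with no test. The fit was tested on simulated data. With 2 arrays a group, their number limits the precision.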

Additional observations from a re-analysis of the deposited data

Results flagged for a closer look

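The response to the TGFβ label differed between the siRNA groups for 56 of the named genes, at an adjusted p under 0.05 in limma's test of the siKlf4 response minus the siControl response. The log2 difference of responses stands after each gene, and many of these single calls depended on 1 array. A one-way analysis of variance without moderated variances called 0 such differences over all genes, with 2400 at an unadjusted p under 0.05. Of 93 named or listed genes with such a call, 17 kept it with any of the 8 arrays left out, and 9 kept it in none of those fits. The 17 were Ppbp (2.98), Serpinb9e (2.64), Clec2e (2.02), Mmp10 (1.88), Lce1f (1.74), Clca3b (1.43), Slc7a11 (1.15), Upk1b (−2.00), Arhgef26 (−1.89), Slco1a5 (−1.79), Vat1l (−1.77), Cd36 (−1.62), Upk3b (−1.56), Elovl6 (−1.24), Pclaf (−1.22), Lig1 (−1.11) and Tk1 (−1.07).

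Further cell cycle genes with a larger fall in siKlf4 were Nuf2 (−1.11), Prim1 (−1.08), Ncapg2 (−1.01), Uhrf1 (−0.95), Aurkb (−0.92), Mki67 (−0.92), Fbxo5 (−0.92), Ccna2 (−0.90), Mcm5 (−0.82), Ccnd2 (−0.79) and Mad2l1 (−0.76). Secreted, matrix and adhesion genes were Cxcl5 (1.56), Edn1 (0.96), Inhba (0.76), Ltbp1 (1.01), Ctsl (0.60), Cst9 (−1.27), Vcam1 (−1.33), Itgb6 (−0.93), Tns1 (−1.27) and Acta1 (0.77). Genes of epidermal differentiation and epithelial factors were Lce1g (1.5), Lce1i (1.39), Sprr1a (0.80), Elf3 (1.03) and Foxn1 (0.79). On every siControl array Lce1f, Lce1g, Lce1i and Serpinb9e read below the array medians, where a response may not be seen. The same holds for Upk1b on the siKlf4 arrays, which read near or below those medians. Stress and metabolic genes were Chac1 (1.23), Jun (1.06), Vldlr (0.81), P4ha2 (0.80), Akr1c18 (1.82), Ugt2b34 (−1.52), Osgin1 (−1.06), Cyp4b1 (−0.68) and Gpx3 (−0.64). The others were Dpysl3 (0.82), Gbp4 (−1.32), Ifit2 (−0.74) and Tgfbr2 (−0.63). The call was lost for Ctsl, Cyp4b1, Gpx3, Ifit2 and Tgfbr2 in every fit without an array.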

How the results depend on the processing

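The number of called genes depended on the arrays and on how variances were treated, while none of the 170 named genes called in siKlf4 changed sign under the 16 or 17 alternatives run for each, and 94 of them stayed called under all. Of the named genes that were not called, 12 had values on either side of 0 over the alternatives. With 1 array left out, between 498 and 1266 genes rose and between 683 and 1434 fell in siKlf4, between 481 and 1193 rose and between 567 and 1352 fell in siControl, and between 13 and 82 positive and between 15 and 151 negative interactions passed. The siKlf4 counts were 613 and 683 without siKlf4 TGFβ array 1, and 498 and 776 without array 2. Without siKlf4 array 2 without TGFβ they were 801 and 932. Here the array left alone in its group was assumed to vary like the others. At an adjusted p under 0.01, 617 and 785 genes passed in siKlf4, 563 and 644 in siControl and 16 and 21 in the interaction (higher and lower). At 1.5-fold or more, 415 and 571 passed in siKlf4 and 373 and 455 in siControl. With a trend and robust variances, the interactions were 287 and 473. A one-way analysis of variance without moderation called 784 genes higher in siKlf4, 734 higher and 755 lower in siControl, and 0 in either direction for the interaction, where 2400 genes had an unadjusted p under 0.05 and the smallest adjusted p was 0.0656. limma gave 2403 at an unadjusted p under 0.05. The deviations of equally numbered arrays correlated at r = −0.004 between the siKlf4 groups and 0.38 between the groups without TGFβ, and the other pairs of groups lay between −0.05 and 0.04. Since not every pair of groups correlated, the numbers were not taken as pairs. With the replicate number as a block, 1234 genes rose and 1386 fell in siKlf4, 1211 and 1349 in siControl, and 111 and 215 interactions passed. The causes of these changes were not tested.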

Other observations

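Gene families outside the lists above were chosen after the values were seen, and are given as counts and medians with no test. For members of these families not named earlier, whether a call held with 1 array left out is not given. Of 29 measured condensin and centromere genes, none rose and 19 fell in siKlf4 (median −0.79), against 0 and 11 in siControl (median −0.29). The kinetochore genes Spc24 and Spc25 differed by −1.44 and −1.36 and the condensin I subunit gene Ncapg by −1.40. Of 30 histone genes, 3 rose and 11 fell in siKlf4 (median −0.18), against 3 and 1 in siControl. The linker histone gene H1f1 differed by −1.41 and H4c6 by −1.07, while H2bc4 rose by 1.47, H3c15 by 1.27 and H1f2 by 0.76. Histone genes are near-identical copies, so that probe sets may share signal.

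Of 20 semaphorin genes, which encode guidance ligands, 6 rose and 1 fell in siKlf4 (median 0.16), against 4 and 1 in siControl. Sema6a rose by 0.90, Sema3c by 0.84 and Sema4c by 0.77, while Sema6b fell by 0.69. Of 11 genes with Dhrs names, 6 fell and none rose (median −0.40), against 3 and 0 in siControl (median −0.27). They are short-chain dehydrogenase genes except Dhrs13os, an opposite-strand transcript that was not called. The responses of the siRNA groups did not differ past the threshold for any of them.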
